A study of Mus musculus with 6 samples.

Results

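The proteasome subunit genes were followed in mouse prefrontal tissue, across a tauopathy model and its treatment with a small molecule. They were chosen by name: every gene symbol of the forms Psma, Psmb, Psmc, Psmd, Psme, Psmf and Psmg followed by a number and nothing else, which gave 48 genes among the 53640 symbols shared by all 6 libraries. The rule used names alone. By role they were 8 alpha and 7 constitutive beta subunits of the 20S core, 3 immunoproteasome subunits (Psmb8, Psmb9 and Psmb10), the thymic subunit Psmb11, 6 ATPases and 11 other subunits of the 19S cap, 3 chaperones of cap assembly, 5 genes for other activators and an inhibitor, and 4 chaperones of core assembly.

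RNA was sequenced from bulk lysates of the tissue that the labels call PFC, from mice of 6 months. Control mice were C57BL/6 x C3H and received vehicle. Tau mice carried PS19(P301S), a transgene for human tau with the P301S change driven by the prion protein promoter, and also received vehicle. Treated tau mice carried PS19(P301S) and received WDR5-0103, a small molecule that binds WDR5, the scaffold protein of histone H3 lysine 4 methyltransferases. Each group had 2 libraries, which the labels call biological duplicates. In bulk tissue, fewer cells of a type and less RNA per cell cannot be told apart.

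The proteasome degrades proteins tagged with ubiquitin. Its barrel-shaped 20S core is built of alpha rings, which gate the entrance, and beta rings, which hold the proteolytic sites, and the 19S cap binds ubiquitin chains, removes them, unfolds the substrate with its ring of ATPases and feeds it into the core. Interferon-responsive subunits can replace the catalytic beta subunits to form the immunoproteasome, which is scarce in healthy neurons, and transcription of most subunits is raised together by the factor Nfe2l1 when proteasome activity is short.

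Libraries held between 17690811 and 34774643 counted reads, and the 48 genes took between 54208 and 99973 of them, or 0.278% to 0.326% of the reads on shared symbols. The control and tau libraries were counted on a list of 54429 symbols and the treated tau libraries on another list of 54134, so treatment and the list used for counting cannot be told apart. Prnp, whose promoter drives the transgene, gave 1654 CPM in control 1, 876 CPM in control 2 and 1472 to 1876 CPM across the 4 tau and treated tau libraries, so the label of control 1 is in doubt, and control 1 here means only the library so labelled. CPM stands for the count scaled to a common library total with the TMM factors of edgeR. The library labelled control 1 also held olfactory bulb markers at a sum of 118 CPM, against 3.69 to 7.51 CPM in the other 5 libraries. Xist stood at 0.197 CPM in control 1, 318 CPM in control 2, 186 and 235 CPM in the tau libraries and 2.43 and 1.75 CPM in the treated ones. The Y-linked Ddx3y was at 95.2, 0.314, 0.391 and 0.115, and 108 and 91.2 CPM in that order. Treatment and sex therefore cannot be told apart, and in tau against control the library labelled control 1 differed in sex from the other 3. Summed markers of oligodendrocytes were at 1427 CPM in control 2 and 5490 CPM in tau 2, with 2404 to 2891 CPM in the other 4 libraries, and those of striatal projection neurons were at 230 CPM in tau 2 and at 85.4 to 128 CPM elsewhere. In tau against control 8 of 8 striatal markers were higher at an unadjusted edgeR p under 0.05 (median log2 fold change 1.22), beside 4.31% of all genes. In treated tau against tau 8 of 8 were lower (median -1.05), beside 4.45%, and 3 of them were called after adjustment, beside 0.677%. Of 8 oligodendrocyte markers, 6 were higher at that p in tau against control (median 0.864), and 0 were lower in treated tau against tau (median -0.525). The part of these differences in the values below was not tested.

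Levels of the proteasome genes spanned a wide range. Per kilobase of merged exon, averaged over the 3 groups, the cap ATPase Psmc5 was highest at 110 CPM per kilobase, followed by the ATPases Psmc1 at 60.8 and Psmc3 at 59.2 and by Psmd2, a scaffold of the cap base, at 59.0 CPM per kilobase. Of the core, Psmb4 at 51.3 and Psma6 at 49.0 CPM per kilobase were highest. Assembly chaperones lay lower, from 1.89 CPM per kilobase for Psmg3 to 8.66 for Psmd10. The lowest were the immunoproteasome subunits Psmb8 at 0.594 and Psmb9 at 0.296 CPM per kilobase, the testis alpha subunit Psma8 at 0.125 and the thymic subunit Psmb11 at 0.0844. Psmb11 was left untested for low counts, with 32 reads in control 1, 6 in each of control 2, tau 1 and tau 2, 12 in treated tau 1 and 0 in treated tau 2, where a count of 0 allows up to 3. The other 47 genes entered the test. Psma8 passed the filter on low counts only through the tau libraries, with 14 and 8 reads there against 8 and 6 in the controls and 8 and 2 in the treated ones. A gene that passes in this way had to differ, so it supports no count below, and counts that include it are also given without it, a choice made after seeing the data.

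The map of all 47 genes by library shows how the members varied together. Measured as the deviation of log2 CPM from each gene's own mean, the median member lay at 0.005 in control 1 as labelled, at -0.13 in control 2, at 0.12 in tau 1, at 0.029 in tau 2, and at -0.011 and -0.015 in the treated tau libraries. Control 2 was the lowest library for 23 of the 47 members and tau 1 the highest for 27. The controls differed from each other about as much as the groups did: the members' summed level was 3025 and 2746 CPM in the controls, 3264 and 3107 CPM in the tau libraries and 2922 and 2980 CPM in the treated ones.

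**Figure D1:**
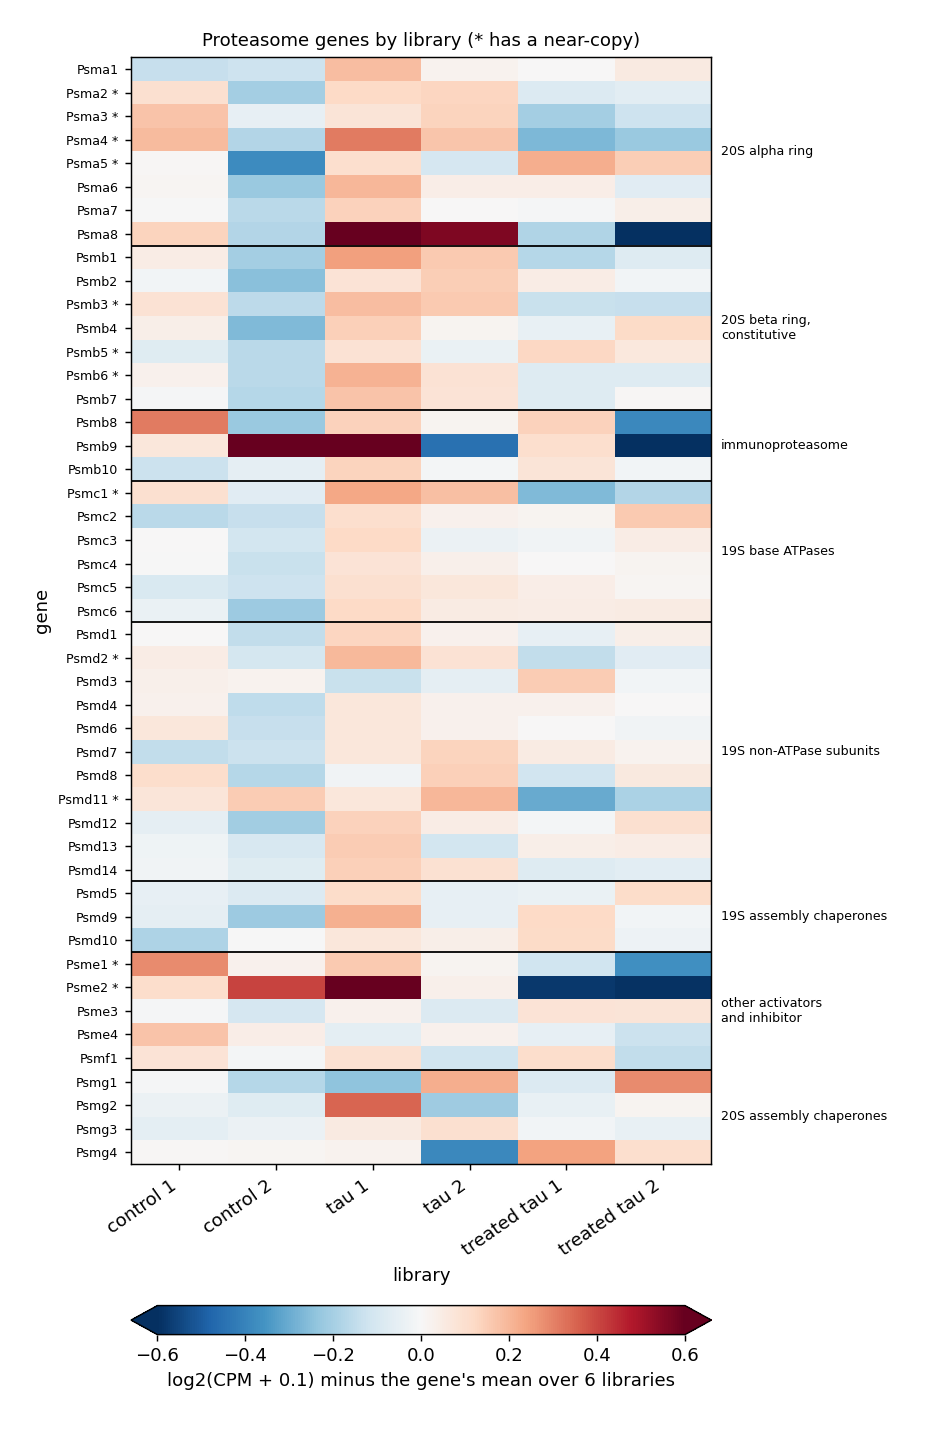
Log2 deviation of each proteasome gene (rows, grouped by role) from its own mean over the 6 libraries (columns), on log2(CPM + 0.1); red is above and blue below the mean, and an asterisk marks genes with a near-identical copy elsewhere in the genome. The tau 1 column is mostly red and the control 2 column mostly blue, while the strong colours of Psma8, Psmb9 and Psme2 belong to genes with few reads.

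In tau against control, no proteasome gene passed the test. Most members had slightly higher levels in tau: 41 of 47 fold changes were positive and 6 negative, with a median log2 fold change of 0.155, beside a median of -0.003, 49.4% positive and 50.5% negative over all 20694 genes tested. Every one of the 15 core alpha and constitutive beta subunits and 16 of the 17 cap subunits had a positive value, with medians of 0.215 and 0.151, whereas the 5 activator and inhibitor genes had 2 positive values and a median of -0.041. Without Psma8 the counts were 40 of 46 positive, with a median of 0.153, and 14 of 14 core subunits. The largest values among well-measured members were those of the beta subunit Psmb1, at 0.28 ± 0.10 (SE), and of Psmb2, at 0.24 ± 0.11.

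The test was edgeR's quasi-likelihood test on the counts with Benjamini-Hochberg adjustment over all genes and a threshold of 0.05, and it called 0 of the 47 members and 0% of all genes, higher or lower. DESeq2 also called 0 members. At an unadjusted edgeR p under 0.05 there were 9 members higher, beside 4.31% of all genes, and 0 lower, beside 5.64%: Psma1, Psmb1, Psmb2, Psmb6, Psmc2, Psmc5, Psmc6, Psmd7 and Psmd12. Both tau libraries lay above both controls for 25 members (24 without Psma8), beside 20.3% of all genes, and below for 2 members, Psmd3 and Psme4, beside 21.3%. Without the library labelled control 1 the median was 0.206, with 42 members positive and 16 higher and 0 lower at an unadjusted p under 0.05. Without control 2 it was 0.086, with 36 positive of 48 and 1 higher and 1 lower at that p, and without tau 1 it was 0.102, with 36 positive, 1 higher and 0 lower.

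In treated tau against tau, 1 proteasome gene passed the test: Psmc1, which encodes Rpt2, the ATPase of the cap whose tail helps to open the core, fell by 0.43 on the log2 scale (SE 0.087). Most other members had slightly lower levels, with 39 of 47 negative, 8 positive and a median of -0.074, beside 51.3% negative, 48.7% positive and a median of -0.006 over all genes. Without Psma8 it was 38 of 46 negative, with a median of -0.069. Leaving aside the scarce Psma8 and Psmb9, the most negative values belonged to genes among the 12 members that have a near-identical copy elsewhere in the genome, whose median was -0.289 against -0.052 for the 34 other tested members without such a copy, Psma8 left out. The copies are described further on with their own counts.

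The test called 1 member lower, beside 0.677% of all genes, and 0 higher, beside 3.09%. At an unadjusted p under 0.05 there were 11 members lower, with Psma8 left out of the count, beside 4.45% of all genes, and 0 higher, beside 7.52%. Of these 11, 9 belonged to the 12 members with a near-copy and 2 (Psmb1 and Psmd14) to those without. Both treated libraries lay below both tau libraries for 21 members (20 without Psma8), beside 20.1% of all genes, and above for 4, beside 21.2%. With any 1 of the tau or treated tau libraries left out, the log2 fold change of Psmc1 ran from -0.470 to -0.378, but it was no longer called (adjusted p from 0.101 without tau 2 to 0.24 without treated tau 1, edgeR quasi-likelihood). In those fits the lone library of a group is assumed to vary like the other groups. Without tau 1 the median of the members was -0.037, with 19 of 48 positive.

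**Figure D2:**
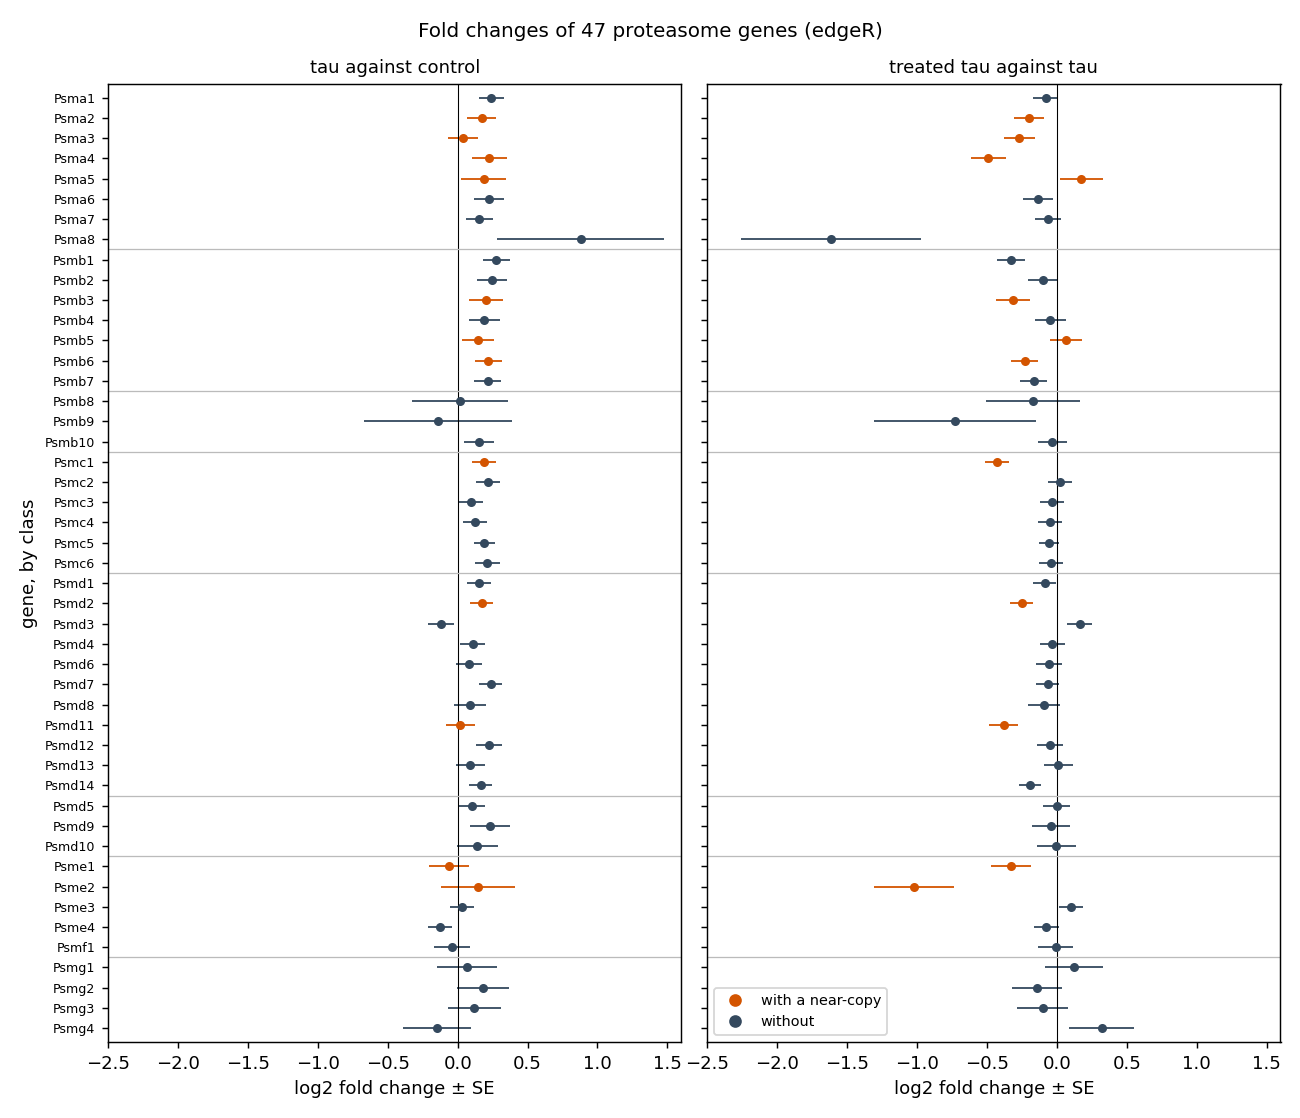
Log2 fold change with its standard error (edgeR; horizontal axis) for the 47 tested proteasome genes, by role, in tau against control (left) and treated tau against tau (right); orange marks genes with a near-identical copy elsewhere. Points lean right of 0 in the left panel and left of 0 in the right panel, both comparisons use the tau libraries, and in the right panel orange points reach further left than nearly all dark ones.

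In the alpha ring, Psma1, an outer ring subunit, was at 59.3 and 59.9 CPM in the controls, 74.2 and 66.4 CPM in the tau libraries and 65.5 and 67.8 CPM in the treated ones. Psma6 was at 60.8 and 51.7 CPM, 69.2 and 61.9 CPM, and 61.9 and 57.6 CPM in that order. In both genes the tau libraries lay above the controls and overlapped the treated ones, with log2 fold changes for tau against control of 0.24 ± 0.091 (SE; adjusted p 0.452, edgeR quasi-likelihood) and 0.22 ± 0.11. Psma4 was at 60.1 and 46.7 CPM in the controls, 65.6 and 59.2 CPM in the tau libraries and 43.8 and 45.2 CPM in the treated ones. It had the smallest p of the alpha ring in treated tau against tau, -0.49 ± 0.12 with an adjusted p of 0.0728, and both treated libraries lay below all 4 others.

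Psma3, another outer ring subunit, was at 40.2 and 34.5 CPM in the controls, 37.6 and 39.1 CPM in the tau libraries and 31.0 and 32.7 CPM in the treated ones, which lay below all the others. Psma5 went the other way, with 15.6 and 11.9 CPM in the controls, 16.6 and 14.4 CPM in the tau libraries and 18.1 and 17.2 CPM in the treated ones. Its treated libraries lay above the other 4, at 0.36 ± 0.15 against control (adjusted p 0.276). The testis subunit Psma8 stayed below 0.6 CPM everywhere, at 0.316 and 0.235 CPM in the controls, 0.547 and 0.459 CPM in the tau libraries and 0.234 and 0.0746 CPM in the treated ones. Psma2 and Psma7, not named by the rule for full values, had log2 fold changes of 0.17 and 0.15 in tau against control and of -0.20 and -0.062 in treated tau against tau.

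In the beta ring, Psmb1, a structural subunit without a proteolytic site, was at 113 and 95.02 CPM in the controls, 130 and 122 CPM in the tau libraries and 97.2 and 104 CPM in the treated ones. Both tau libraries lay above the other 4 and the treated libraries overlapped the controls. It was the member without a near-copy that had the smallest p in treated tau against tau, -0.33 ± 0.099 with an adjusted p of 0.148 (edgeR quasi-likelihood), beside -0.050 ± 0.099 against control. Psmb2, also structural, was at 43.8 and 37.2 CPM in the controls, 46.9 and 49.1 CPM in the tau libraries and 45.7 and 43.7 CPM in the treated ones, and Psmb3 at 22.3 and 18.9 CPM, 24.0 and 23.5 CPM, and 19.2 and 19.1 CPM. In Psmb3 the treated libraries fell within the range of the controls and below both tau libraries, at -0.31 ± 0.12.

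The constitutive catalytic subunits varied little. Psmb5, the chymotrypsin-like subunit, was at 21.5 and 20.2 CPM in the controls, 24.0 and 22.0 CPM in the tau libraries and 24.6 and 23.6 CPM in the treated ones. Psmb6, the caspase-like subunit, was at 70.2 and 61.7 CPM, 79.7 and 73.5 CPM, and 65.5 and 65.4 CPM. Psmb7, the trypsin-like subunit, was at 57.5 and 51.3 CPM, 65.0 and 61.1 CPM, and 54.7 and 58.0 CPM. In all 3 the tau libraries lay above both controls, at 0.15 ± 0.12, 0.22 ± 0.096 and 0.21 ± 0.097. In treated tau against tau the values were 0.065 ± 0.11 for Psmb5, -0.23 ± 0.096 for Psmb6 and -0.17 ± 0.096 for Psmb7, none called. Psmb4, a structural subunit, had 0.19 and -0.046 in these comparisons.

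Of the immunoproteasome, 2 of 3 subunits were scarce. Psmb8, the inducible counterpart of Psmb5, was at 2.49 and 1.69 CPM in the controls, 2.19 and 2.01 CPM in the tau libraries and 2.19 and 1.49 CPM in the treated ones. Psmb9, the counterpart of Psmb6, was at 1.03 and 1.73 CPM, 1.64 and 0.688 CPM, and 1.05 and 0.373 CPM. The groups of both genes overlapped, and at 10 to 44 reads per library for Psmb9 a change of the size of its standard error of 0.58 would not have been detectable. Psmb10, the counterpart of Psmb7, was far higher, at 29.9 and 31.5 CPM in the controls, 35.8 and 32.4 CPM in the tau libraries and 34.5 and 32.4 CPM in the treated ones. No immunoproteasome gene was called: tau against control gave 0.020 ± 0.34 for Psmb8, -0.14 ± 0.53 for Psmb9 and 0.15 ± 0.11 for Psmb10, and treated tau against tau gave -0.17 ± 0.34, -0.73 ± 0.58 and -0.032 ± 0.10.

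Set against its constitutive counterpart per kilobase of exon, Psmb8 stood at 3.07% and 2.22% of Psmb5 in the controls, 2.43% and 2.42% in the tau libraries and 2.37% and 1.68% in the treated ones. Psmb9 stood at 0.748% and 1.43% of Psmb6, at 1.05% and 0.479%, and at 0.822% and 0.292%, in the same groups. Psmb10 instead exceeded Psmb7 per kilobase in every library, at 104% and 123% in the controls, 111% and 106% in the tau libraries and 127% and 112% in the treated ones. This rests on exon lengths merged over all annotated transcripts, 1705 bases for Psmb10 and 3421 for Psmb7. Before division by length Psmb10 was the lower of the pair in every library, at 29.9 to 35.8 CPM against 51.3 to 65.0 CPM. The order of these 3 pairs per kilobase was the same in all 6 libraries. Several of these genes overlap another gene on the opposite strand (Psmb9 with Tap1 over 212 bases, Psmb8 with the antisense Gm20496 over 498 and Psmb7 with Nek6 over 405), and no source used here gives the strand setting of the counting, so reads of such partners may be included. Psmb5 also shares 54.1% of its 50-base stretches with other genes, so its level is uncertain.

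**Figure D3:**
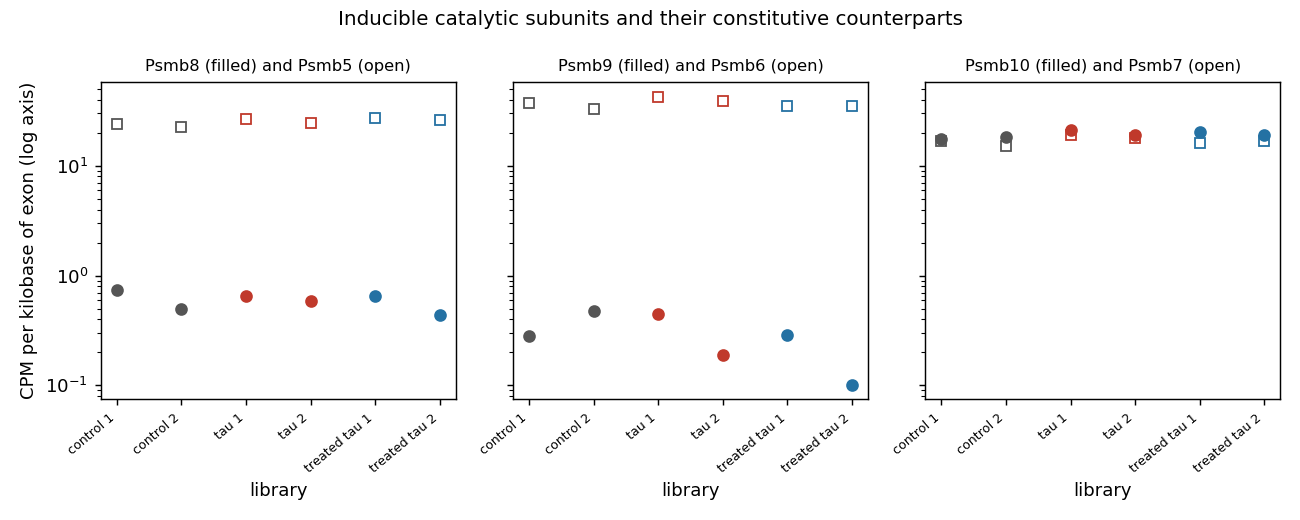
Level per kilobase of exon (log axis) of each inducible catalytic subunit (filled circles) and its constitutive counterpart (open squares) in the 6 libraries; grey is control, red tau and blue treated tau. Psmb8 and Psmb9 lie far below Psmb5 and Psmb6 in every library, while Psmb10 lies just above Psmb7.

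In the ATPase ring of the cap, Psmc1 was at 125 and 111 CPM in the controls, 137 and 132 CPM in the tau libraries and 96.9 and 103 CPM in the treated ones, so the treated libraries lay below all 4 others. Its adjusted p in treated tau against tau was 0.0241 (edgeR quasi-likelihood), and against control it was -0.24 ± 0.087 with an adjusted p of 0.201. The other 5 ATPases showed no such step. Psmc2 was at 87.5 and 89.0 CPM in the controls, 105 and 99.7 CPM in the tau libraries and 99.1 and 109 CPM in the treated ones, and Psmc5 at 144 and 141 CPM, 164 and 161 CPM, and 158 and 155 CPM. In both, the 4 transgenic libraries lay above both controls, at 0.21 ± 0.086 and 0.19 ± 0.073 for tau against control. Psmc3, Psmc4 and Psmc6 had positive values of 0.099, 0.12 and 0.21 in that comparison, and in treated tau against tau the 5 ATPases other than Psmc1 ranged from -0.055 (Psmc5) to 0.022 (Psmc2).

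Among the other cap subunits, Psmd7, the partner of the deubiquitinase Psmd14, was at 69.0 and 70.0 CPM in the controls, 80.1 and 84.0 CPM in the tau libraries and 79.0 and 77.7 CPM in the treated ones. It had the smallest p of all members in tau against control, 0.24 ± 0.082 with an adjusted p of 0.445. The lid subunit Psmd12 was at 73.0 and 65.6 CPM, 83.4 and 78.2 CPM, and 75.3 and 81.1 CPM, with tau above the controls at 0.22 ± 0.094. Psmd2 was at 245 and 221 CPM in the controls, 272 and 252 CPM in the tau libraries and 214 and 226 CPM in the treated ones, so the treated libraries overlapped the controls and lay below tau, at -0.25 ± 0.083 (adjusted p 0.201).

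Psmd11, a lid subunit needed for assembly of the cap with the core, was at 33.6 and 35.5 CPM in the controls, 33.5 and 36.7 CPM in the tau libraries and 25.9 and 28.0 CPM in the treated ones. Controls and tau overlapped, and both treated libraries lay below all 4 others, at -0.38 ± 0.11 against tau (adjusted p 0.111) and -0.36 ± 0.10 against control (adjusted p 0.106). Psmd3 was the only cap subunit with a negative value in tau against control, at -0.12 ± 0.091. The remaining 6 (Psmd1, Psmd4, Psmd6, Psmd8, Psmd13 and Psmd14) had positive values in that comparison, from 0.080 for Psmd6 to 0.16 for Psmd14.

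The chaperones of cap assembly showed small differences. Psmd5 was at 57.5 and 56.2 CPM in the controls, 64.2 and 57.4 CPM in the tau libraries and 57.8 and 64.1 CPM in the treated ones. Psmd9 was at 16.9 and 15.0 CPM, 20.3 and 16.9 CPM, and 19.03 and 17.3 CPM, and Psmd10 at 11.2 and 12.7 CPM, 13.3 and 13.0 CPM, and 13.8 and 12.4 CPM. For all 3 the tau libraries overlapped the treated ones, with treated tau against tau between -0.041 and -0.001. The chaperones of core assembly had few reads and wide errors. Psmg1 was at 8.604 and 7.68 CPM in the controls, 7.31 and 10.1 CPM in the tau libraries and 8.18 and 10.6 CPM in the treated ones, and Psmg2 at 11.3 and 10.9 CPM, 14.7 and 9.92 CPM, and 11.2 and 11.6 CPM. Psmg3 was at 5.25 and 5.33 CPM, 5.67 and 5.85 CPM, and 5.41 and 5.29 CPM, and Psmg4 at 3.87 and 3.88 CPM, 3.91 and 2.92 CPM, and 4.56 and 4.14 CPM. Only Psmg3 and Psmg4 separated tau from treated tau, in opposite directions, at -0.10 ± 0.18 and 0.32 ± 0.23.

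The 5 activator and inhibitor genes, none of them called, had medians of -0.041 in tau against control and -0.074 in treated tau against tau. Psme1 and Psme2 encode the PA28 alpha and beta subunits, an interferon-inducible ring that opens the core without ATP, Psme3 and Psme4 encode other ATP-independent activators, and Psmf1 encodes an inhibitor. Psme1 was at 23.1 and 19.3 CPM in the controls, 21.2 and 19.2 CPM in the tau libraries and 17.5 and 14.7 CPM in the treated ones. Psme2 was at 3.39 and 4.19 CPM, 4.93 and 3.21 CPM, and 2.08 and 2.05 CPM. In both genes the treated libraries lay below all 4 others: Psme1 was at -0.33 ± 0.14 (adjusted p 0.412) and Psme2 at -1.02 ± 0.29 (adjusted p 0.116) against tau. Psme4 was at 111 and 101 CPM in the controls, 94.6 and 100 CPM in the tau libraries and 95.1 and 89.9 CPM in the treated ones, at -0.12 ± 0.087 for tau and -0.20 ± 0.086 for treated tau against control. Psme3 and Psmf1 lay between -0.041 and 0.10 in tau against control and treated tau against tau.

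Near-identical copies of the members were then searched for. In the GENCODE M21 transcripts of mm10, 12 members (Psma2, Psma3, Psma4, Psma5, Psmb3, Psmb5, Psmb6, Psmc1, Psmd2, Psmd11, Psme1 and Psme2) had in all 20 copies elsewhere that matched them at 95% identity or more over at least 200 bases. The copies were 18 pseudogenes and 2 coding genes, 19 of them among the shared symbols. The remaining one, AC110212.1, is a second copy of Psmc1 with a longest match of 1306 bases, and no library lists counts for it. Sequencing reads from such stretches can be assigned to either place, and the counting rule for them is not given in the sources used here. Aligned stretches show how close 3 pairs are: each is 90 bases of the coding part of the gene and the aligned bases of its copy, with the positions at which they differ in capitals. Psmc1 lies at chr12:100110154-100123405 (plus strand) and its processed pseudogene Gm9575 at chr16:50665008-50666346. Psmd2 lies at chr16:20651652-20663414 (plus strand) and Gm5422, a transcribed processed pseudogene, at chr10:31248023-31251043. Psme2 lies at chr14:55587441-55591113 (minus strand) and the annotated coding gene Psme2b at chr11:48945354-48946190.
Psmc1: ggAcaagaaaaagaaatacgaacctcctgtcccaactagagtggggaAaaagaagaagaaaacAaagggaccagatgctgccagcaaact
Gm9575: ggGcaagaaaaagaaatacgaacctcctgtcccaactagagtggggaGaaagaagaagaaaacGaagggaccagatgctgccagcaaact
Psmd2: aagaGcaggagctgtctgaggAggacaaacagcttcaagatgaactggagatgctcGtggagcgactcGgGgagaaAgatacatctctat
Gm5422: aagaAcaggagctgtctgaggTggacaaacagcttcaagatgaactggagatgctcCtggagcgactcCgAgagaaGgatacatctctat
Psme2: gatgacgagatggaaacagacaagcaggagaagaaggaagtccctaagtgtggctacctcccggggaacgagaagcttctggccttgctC
Psme2b: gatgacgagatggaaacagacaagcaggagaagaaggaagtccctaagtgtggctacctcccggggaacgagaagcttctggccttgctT
These windows hold 3, 6 and 1 differences. Over the whole aligned stretch, Psmc1 and Gm9575 had 21 mismatches over 728 aligned positions and a longest identical run of 115 bases. Psmd2 and Gm5422 had 86 mismatches and 10 gap positions over 2560, with a run of 202, and Psme2 and Psme2b had 5 mismatches over 794, with a run of 341.

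Counts on several copies ran opposite to those on their genes. Gm9575 was the only copy of Psmc1 with counts. It had 198 and 138 reads in the controls, 166 and 130 in the tau libraries and 1179 and 857 in the treated ones. That is 7.81 and 5.41 CPM, 6.49 and 7.45 CPM, and 34.5 and 32.0 CPM. The treated libraries stood far above the other 4, and the log2 fold change against tau was 2.27 ± 0.17 (adjusted p 6.3e-05, edgeR quasi-likelihood). The copy's share of the reads on Psmc1 and Gm9575 together was 5.90% and 4.63% in the controls, 4.53% and 5.33% in the tau libraries and 26.2% and 23.7% in the treated ones. Psmc1 and Gm9575 summed stood at 133 and 117 CPM, 143 and 140 CPM, and 131 and 135 CPM, so the treated libraries then overlapped the controls and lay just below tau.

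Gm5422, the copy of Psmd2, was at 37.8 and 36.1 CPM in the controls, 41.9 and 40.8 CPM in the tau libraries and 76.3 and 81.3 CPM in the treated ones, 0.93 ± 0.091 against tau (adjusted p 0.000306). Gm6542, the copy of Psma4, was at 13.3 and 10.3 CPM, 14.6 and 13.1 CPM, and 27.6 and 26.9 CPM, 0.97 ± 0.14 (adjusted p 0.00396). Psmb6-ps2, a pseudogene of Psmb6, had 4 and 0 reads, 4 and 0 reads, and 157 and 102 reads (adjusted p 0.000431). All 3 were high in both treated libraries and low in the other 4. Psmb6-ps2 passed the filter on low counts only through the treated libraries, so it had to differ and its call supports no count. Gm4742, one of 4 copies of Psma3, was called higher as well, at 2.23 ± 0.43. Psme2b, the copy of Psme2, was not: it was at 13.3 and 11.8 CPM in the controls, 14.1 and 11.1 CPM in the tau libraries and 15.7 and 13.7 CPM in the treated ones, 0.21 ± 0.16 (adjusted p 0.722), and held 73.8% to 88.3% of the reads of the pair.

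In all, 14 copies had enough reads for the test. In treated tau against tau 5 were called higher and 0 lower, beside the 3.09% and 0.677% of all genes given above, and 12 had positive values. Psmb6-ps2, which was called, and Gm5406, which was not, passed the filter on low counts only through the treated libraries. Both had to be higher there and support neither count. The called copies other than Psmb6-ps2 were Gm9575, Gm5422, Gm6542 and Gm4742, and the copies with negative values were Gm13835 and Gm3375. Most copies have symbols of the Gm or -ps kind. A fit without symbols of the Gm, Rik and -ps kinds called 50 of 14774 genes in this comparison, where the full fit called 779 of 20694. The share called among symbols like the copies was not counted, so the shares of all genes are no like measure. In tau against control 0 copies were called, but 0% of all genes were called there, so this count says nothing particular about the copies. At an unadjusted edgeR p under 0.05 there was 1 copy, Gm8394, which was higher, beside 4.31% of all genes higher and 5.64% lower. For Psmd11 the copy Gm14048 is listed at 0 reads in every library, so the lower Psmd11 level in the treated libraries had no counterpart there. For Psma5 and Psmb5 the copies held 70.6% to 73.7% and 46.0% to 49.7% of the joint reads in all 6 libraries, with no step between groups.

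**Figure D4:**
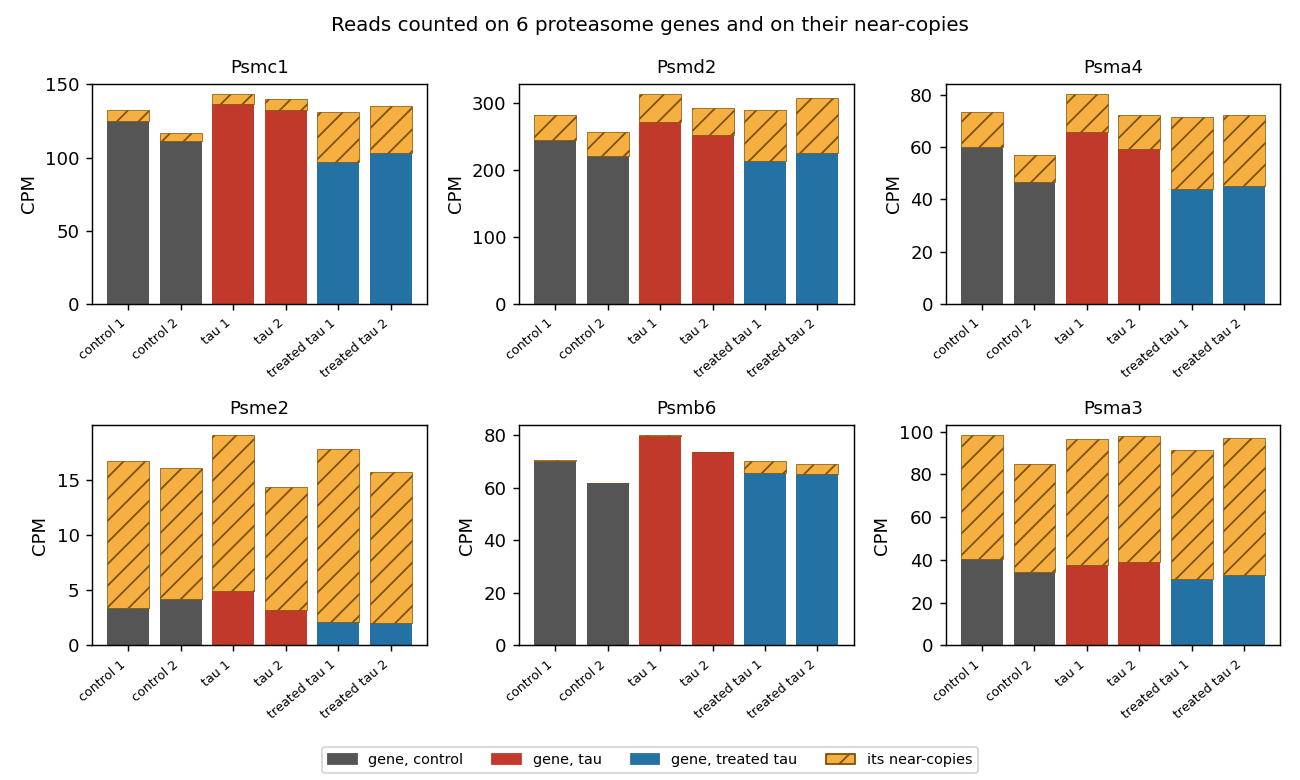
CPM counted on 6 proteasome genes (solid bars; grey control, red tau, blue treated tau) with the CPM on their near-copies stacked on top (hatched), per library. In Psmc1 and Psma4 the solid part is shorter in both treated libraries than in all others, and in Psmd2 it is shorter than in tau but overlaps the controls. In these genes the hatched part is taller in both treated libraries, and the treated stacks lie within the range of the control and tau stacks.

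Each gene was also summed with its counted copies before the fit, an alternative chosen after seeing the data. Most of the lower values then came close to 0. The copies were already seen to be mostly higher in the treated libraries, so the direction of this shift was fixed beforehand. In Psme2, Psma3 and Psma5 the copies held most of the joint reads, so these sums largely restate the copies. AC110212.1 had no counts to add to Psmc1. In treated tau against tau, Psmc1 went from -0.43 to -0.087 ± 0.085 (adjusted p 0.804), Psma4 from -0.49 to -0.090 ± 0.12, Psme2 from -1.02 to -0.008 ± 0.15 and Psmd2 from -0.25 to -0.021 ± 0.080. Psma3 went to -0.044 ± 0.094, Psmb3 to -0.10 ± 0.11, Psmb6 to -0.14 ± 0.096 and Psme1 to -0.22 ± 0.14. Psmd11 alone kept its value of -0.38, since its copy had no reads. The median of the 12 genes with copies was then -0.088, with a range from -0.38 to 0.20, and the number of them at an unadjusted p under 0.05 went from 9 to 1. Without Psma8, 0 of 46 members were called after summing (3 at an unadjusted p under 0.05, all lower) and the median was -0.056, with 38 negative. The part of the copies in the lower values of the genes was not tested, and it cannot be told apart from treatment, sex and the list of symbols. In tau against control summing changed little: the median was again 0.155 with 41 members positive.

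**Figure D5:**
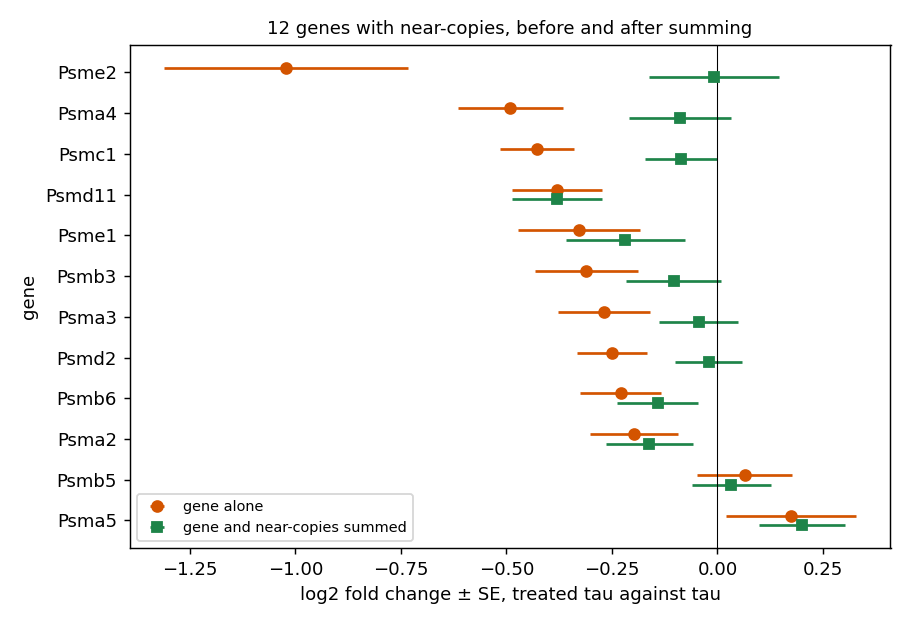
Log2 fold change with its standard error in treated tau against tau for the 12 genes with near-copies, for the gene alone (orange circles) and for gene and copies summed (green squares). Psme2, Psma4, Psmc1 and Psmd2 move to values near 0, Psmd11 stays at -0.38, and Psma5 and Psmb5 stay right of 0.

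In treated tau against control, no member passed the test. The test called 0 members, beside 3.32% of all genes higher and 0.899% lower, and DESeq2 called 0 as well. Of the 47 members 29 were positive, beside 48.8% of all genes, and 18 negative (17 without Psma8), beside 51.2%, and the median was 0.065. At an unadjusted p under 0.05 there were 2 higher (Psma5 and Psmc2), beside 8.16% of all genes, and 5 lower (Psmc1, Psmd11, Psme1, Psme2 and Psme4), beside 8.09%. Both treated libraries lay above both controls for 15 members, beside 23% of all genes, and below for 8 (7 without Psma8), beside 23.3%. Without the library labelled control 1 the median was 0.136, with 38 positive, and without control 2 it was 0.001. With gene and copies summed, 37 members were positive and the median was 0.088, and Psmc1 and Psme2 turned from -0.24 and -0.88 to 0.096 and 0.037. This comparison shares its libraries with the other comparisons, so the 3 sets of values are not independent.

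Genes that work with the proteasome were read from lists made for the purpose. Of 14 measured partners and regulators (shuttling receptors, deubiquitinases and assembly factors), 0 were called in any comparison. Of all genes, 0% were called in tau against control. In treated tau against tau 3.09% were called higher and 0.677% lower, and in treated tau against control 3.32% and 0.899%. A count of 0 in a list of this size lies near those shares. Medians of the partners were 0.080, -0.037 and 0.098 in tau against control, treated tau against tau and treated tau against control. The deubiquitinase Usp14 was at 178 and 177 CPM in the controls, 219 and 191 CPM in the tau libraries and 203 and 192 CPM in the treated ones, at 0.21 ± 0.085 in tau against control, and the shuttle gene Ubqln2 had 0.41 ± 0.16 in treated tau against tau. Of 9 genes of the Nfe2l1 route, 0 were called, beside the same shares. Nfe2l1 itself was at 375 and 377 CPM, 382 and 385 CPM, and 427 and 420 CPM, so the treated libraries lay above the other 4, at 0.14 ± 0.066 against tau (adjusted p 0.434), and its partner Mafk had 0.46 ± 0.15 in tau against control (adjusted p 0.442).

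Among genes for ubiquitin and its activation, Ubb and Rps27a, which encode ubiquitin itself, passed the test in both comparisons of treated tau. Ubb was at 237 and 217 CPM in the controls, 245 and 242 CPM in the tau libraries and 378 and 400 CPM in the treated ones (0.68 ± 0.076 against tau, adjusted p 0.000716). Rps27a, a fusion of ubiquitin with a ribosomal protein, was counted at far lower levels. Controls had 3.51 and 4.47 CPM, tau libraries 4.77 and 3.27 CPM and treated libraries 9.996 and 8.24 CPM. Its log2 fold change against tau was 1.15 ± 0.23 (adjusted p 0.0220). Ubb and Rps27a share 48.1% and 26.3% of their 50-base stretches with other genes. Gm1821, a pseudogene copy of Ubb, also had more reads in the treated libraries (2959 and 2170) than in the other 4 (1018 to 1401). Rps27a has 11 near-identical copies. Among them the pseudogene Gm8430, with a longest match of 471 bases, had 482 and 414 reads in the treated libraries. It had 238 to 332 reads in the other 4, all unscaled for library size. The part of the copies in the values of Ubb and Rps27a was not tested. The activating enzymes Uba1 and Uba6 were not called, with -0.082 ± 0.081 and -0.027 ± 0.13 in treated tau against tau.

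A list of 11 genes held antigen loading on MHC class I and interferon control, which share regulators with the immunoproteasome. Of these, 0 were called, beside the shares of all genes given for the partners, which such a count lies near. H2-K1 was at 16.7 and 11.2 CPM in the controls, 15.9 and 17.1 CPM in the tau libraries and 12.8 and 4.21 CPM in the treated ones, and H2-D1 at 23.3 and 15.1 CPM, 22.0 and 21.8 CPM, and 18.0 and 5.52 CPM. Treated tau 2 stood apart as the lowest library for both, as it was for Psmb8 and Psmb9.

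Promoter windows from RefSeq (GRCm38.p6), 300 bases long and spanning each annotated start, were matched for 40 of the 48 members, in 43 windows. The motif TGACNNNGC, the core of the antioxidant response element to which Nfe2l1 and small Maf proteins bind, was present on either strand in 6 member windows (Psmb5, Psmb6, Psmc6, Psmd9, Psmd12 and Psme4), or 14%, beside 12.4% of all 32851 windows. The motif TTCNNNGAA, bound by interferon-activated STAT factors, was present in 3 (Psmb8, Psmd2 and Psmg1), or 6.98%, beside 8.3% of all windows. The members' shares lay close to those of all promoters of the same length.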

How the data were processed

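Total RNA depleted of ribosomal RNA (TruSeq stranded kit with Ribo-zero) was sequenced in 6 bulk libraries, per the labels' protocols. The authors deposited a raw read count per gene symbol for each library: Cutadapt trimmed the reads and TopHat2 aligned them to mouse RefSeq mRNAs, per the labels' protocols, and counted with featureCounts on mm10, per the submitters' processing notes. No source used here gives versions, the strand setting or the treatment of reads that match several places. The members and lists were chosen with earlier results of these data known.

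Counts over the 53640 shared symbols were tested with edgeR 4.0.16 in R 4.3.3 (filterByExpr with a minimum count of 10, TMM, quasi-likelihood with 3 residual degrees of freedom, two-sided), with all 6 libraries in 1 fit and Benjamini-Hochberg adjustment over the 20694 genes tested. DESeq2 1.42.0 was an alternative, and the procedure was tested on simulated data. Lengths and copies came from GENCODE M21 (mm10), with copies found by blastn 2.17.0. The length minimum of 200 bases was set after shorter matches proved repeat-like. Full values are given for called members, the catalytic pairs and, in each comparison, the 2 members of each class with the smallest p. Libraries of 1 group differed by far more than sampling noise (chi-square per degree of freedom 11 to 15.9), so none was counted as a duplicate. P-values set the difference between groups against the spread between libraries of a group, estimated jointly over the 3 groups. That spread includes the differences between the control libraries described above. 1 gene of the ubiquitin list is not reported here.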

Additional observations from a re-analysis of the deposited data

Results flagged for a closer look

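Symbols with a hyphen, which name pseudogenes and were left out of the members, gave the signal outside the main measurement. The 4 hyphenated Psm symbols together had 157 reads in treated tau 1 and 102 in treated tau 2, against at most 6 in a control library. Nearly all of them fell on Psmb6-ps2, and the tau libraries had 4 and 0. The treated libraries were counted on another list of symbols, and treatment and list cannot be told apart.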

How the results depend on the processing

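The number of members called in tau against control and in treated tau against control was 0 under every alternative run. In treated tau against tau the count of 1 (Psmc1) was 2 with DESeq2 and with only the 2 groups compared in the fit (Psma4 and Psmc1), and 0 without a filter on low counts, with only named genes in the fit (14774 tested) and with near-copies summed. In these last 3 settings the log2 fold change of Psmc1, treated tau against tau, was -0.412 (adjusted p 0.0653), -0.418 (0.115) and -0.087 (0.804), beside -0.428 (0.0241, edgeR quasi-likelihood). Leaving out 1 library gave 0 to 2 calls: 2 without either control and 0 without any tau or treated tau library, where Psmc1 stayed between -0.470 and -0.378. Medians over members with 1 library left out ran from 0.086 (without control 2) to 0.207 in tau against control, from -0.105 to -0.037 in treated tau against tau, and from 0.001 to 0.136 (without the library labelled control 1) in treated tau against control. The cause was not tested.

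The replicate numbers are those of the sample titles, and the count files' headers number 4 of the 6 libraries otherwise. Libraries with the same title number did not deviate together (correlations of -0.00512, 0.0888 and -0.134 over 10841 genes). With the replicate number as a block, 0, 1 and 0 members were called in tau against control, treated tau against tau and treated tau against control, with medians of 0.152, -0.075 and 0.067. With numbers crossed between control and treated tau, chosen after seeing the data, 0 were called.

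Signs turned for values near 0. Without a filter, Psmd10 in treated tau against tau was 0.012 and Psmb6 in treated tau against control 0.007. With only named genes, Psmd10 was 0.005 and Psmb8 in tau against control -0.004. With the replicate block, Psmb8 in tau against control was -0.011. With near-copies summed, treated tau against control gave 0.041 for Psma3, 0.077 for Psmb6, 0.096 for Psmc1 and 0.037 for Psme2. With 1 library left out, tau against control ran from -0.234 to 0.328 for Psmb8, -0.991 to 0.281 for Psmb9, -0.237 to 0.379 for Psme2 and -0.157 to 0.409 for Psmg2. Treated tau against tau ran from -0.497 to 0.056 for Psmb8, -1.724 to 0.126 for Psmb9, -0.096 to 0.047 for Psmb10, -0.151 to 0.107 for Psmd9, -0.080 to 0.068 for Psmd10 and -0.365 to 0.200 for Psmg2. Treated tau against control ran from -0.097 to 0.090 for Psmb6, -0.026 to 0.138 for Psmb7 and -0.475 to 0.160 for Psmb8. DESeq2 called 55 genes of all in tau against control, where edgeR's quasi-likelihood test called 0, and the fit on named genes alone called 50 in treated tau against tau and 46 in treated tau against control, where the full fit called 779 and 873. Psmb8, Psmb9 and Psma8 have too few reads for small changes to be detectable.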
